A study of Mus musculus with 6 samples.

Results

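Described here are 9 miRNA precursors known from surface epithelium, lens and cornea, read in small RNA libraries of mouse retina. They are mmu-mir-184, mmu-mir-31, mmu-mir-205, mmu-mir-203 and the 5 precursors of the miR-200 family, mmu-mir-200a, mmu-mir-200b, mmu-mir-200c, mmu-mir-141 and mmu-mir-429. They were chosen by name, for the tissues they are known from, with earlier results of these data known, among them the variable levels of mir-184 and mir-31. All 9 were present among the 855 precursors of the table. Of the 9, 8 had a mean of at least 10 RPKM (reads scaled to the length of the precursor and to the library's total) and entered the tests with 461 precursors in all. The precursor of miR-200c had a mean of 8.71 RPKM and was left out of them.

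The study compared littermate control mice (Dicer fl/fl, iCre75-) with conditional knockout mice (Dicer fl/fl, iCre75+; cKO) on a mixed C57BL/6J - SJL background at 4 weeks of age, so that both genotypes carried the floxed Dicer1 alleles. iCre75 is a Cre recombinase driven by the rhodopsin promoter and therefore acts in rods, while all other cells of the retina keep Dicer1, the RNase that releases mature miRNAs from their hairpins. Each genotype had 3 libraries, each from a pool of 6 retinas, which the submitters call biological replicates. Whole retinas were sequenced, so fewer cells of a type and less RNA per cell cannot be told apart.

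The miRNAs of this group are best known outside the neural retina. miR-184 is a leading miRNA of corneal and lens epithelium, and changes in its seed are known to cause disease of the human cornea and lens. miR-31 and miR-205 act in corneal epithelium and epidermis, and miR-203 moves keratinocytes from division to differentiation by repressing p63. The miR-200 family holds cells in the epithelial state by repressing Zeb1 and Zeb2, the repressors of E-cadherin, and is made from a pair of clusters, of which one carries mir-200b, mir-200a and mir-429 and the other mir-200c and mir-141.

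The arms of each hairpin that are known to guide silencing are shown from RefSeq (build GRCm38.p6), matched by name for 9 of 9 members, because the seed (bases 2 to 8, in capitals) is the part that pairs with target transcripts. Sequences run 5′ to 3′.
miR-184-3p: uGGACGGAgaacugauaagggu
miR-31-5p: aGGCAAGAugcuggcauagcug
miR-205-5p: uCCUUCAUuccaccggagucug
miR-203-3p: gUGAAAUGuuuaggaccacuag
miR-200b-3p: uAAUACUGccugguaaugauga
miR-200c-3p: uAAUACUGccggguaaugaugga
miR-429-3p: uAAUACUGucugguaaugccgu
miR-200a-3p: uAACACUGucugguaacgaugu
miR-141-3p: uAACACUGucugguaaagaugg

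The first 4 have seeds of their own. Among the 1674 different mature miRNAs of that table none other has any of these seeds. The 5 members of the miR-200 family fall into a seed shared by miR-200b, miR-200c and miR-429 and a seed shared by miR-200a and miR-141, and both seeds differ by 1 base (U4C from miR-200b to miR-200a, counted from 1 at the 5′ end). The mature miR-200a and miR-141 differ at 2 of 22 bases (C17A and U22G), and miR-200b and miR-200c at 2 of the first 22 (U11G and A22G). The deposited value of a precursor counts reads anywhere on its hairpin and does not separate the arms. For mir-184, the member whose level varied most, the hairpin with both mature arms in capitals is shown, since its value stands for all of it.
mir-184 hairpin: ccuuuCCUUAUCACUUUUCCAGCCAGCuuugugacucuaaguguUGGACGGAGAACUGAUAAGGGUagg

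The libraries held 5480940 to 7478237 reads by the steps of their RPKM values. The pools were retinal by their miRNAs: mir-182 of photoreceptors stood at 3699195 to 7654312 RPKM and mir-181a-2 of the inner retina at 2625483 to 4655886 RPKM. As the values were deposited, 320 of 461 precursors rose in cKO retina and 8 fell, and the median difference over all 461 was 0.74 on the log2 scale. Median-of-ratios scaling, a rescaling that brings the middle precursor of each library to one level, moved that median to 0.02. RPKM is relative to each library's own total, in which mir-182 is a large item, though below mir-181a-2 in cKO 2 and cKO 3. Genotype differences of the 8 tested members over all 6 libraries are therefore given on both scales.

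Mean levels of the 9 members ran from 8.71 RPKM for mir-200c to 34022 RPKM for mir-184. By mean RPKM over the 6 libraries mir-184 ranked 50 of 855 precursors, mir-31 ranked 134 and mir-203 ranked 220. The mean of mir-205 was 133 RPKM, and those of the miR-200 family were between 8.71 and 32.7 RPKM. In cKO retina the order mir-184, mir-31, mir-203, mir-205 held without overlap of the libraries, and every library of mir-205 lay above every library of mir-200b. In control retina the libraries of mir-184 and mir-31 overlapped, as did those of mir-31 and mir-203. Within the miR-200 family neighbours in the order overlapped in both genotypes, except that mir-200a lay above mir-200c in cKO retina.

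**Figure D1:**
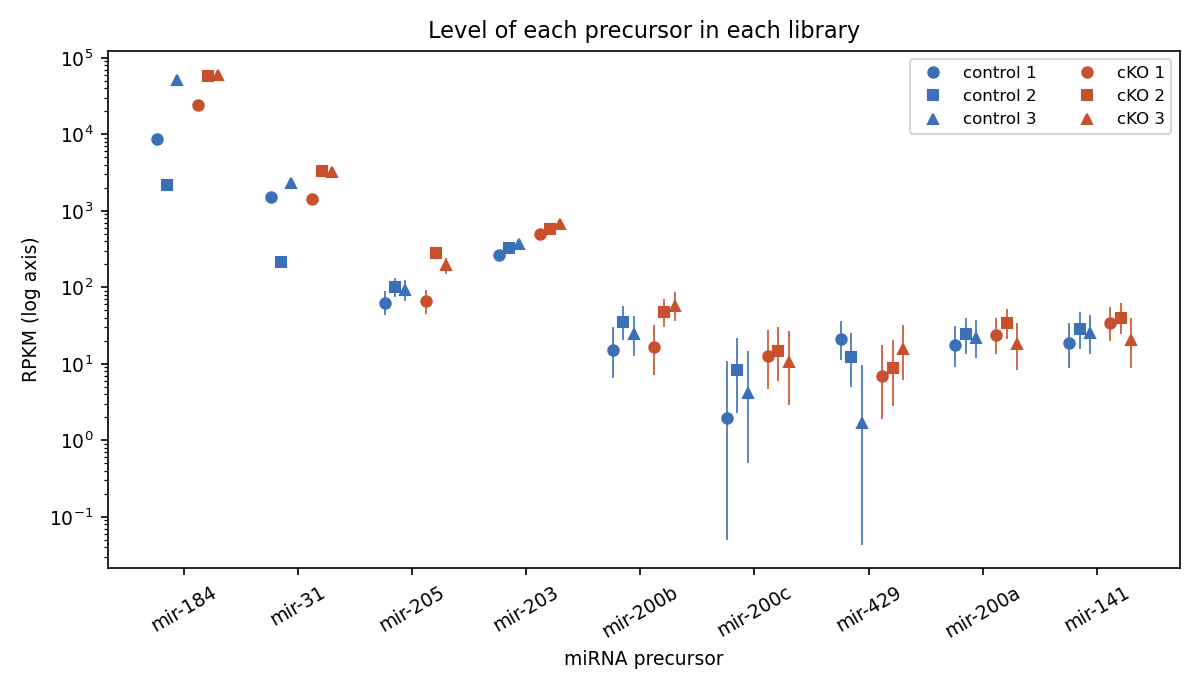
RPKM (log axis) of the 9 precursors in each of 3 control (blue) and 3 cKO (red) libraries, with bars for the exact Poisson 95% interval of the reads. The points of mir-184 and mir-31 spread widely within control retina, where control 2 lies lowest (2186 and 212 RPKM), while all points of the miR-200 family lie below 60 RPKM.

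The lens and corneal miRNA mir-184 differed more between control libraries than between the genotypes' means. It stood at 8731, 2186 and 52002 RPKM in control 1 to 3 and at 23904, 57210 and 60098 RPKM in cKO 1 to 3. Control 3 lay beside the cKO libraries and above cKO 1, so the groups overlapped, and control 2 was the lowest library. In reads, mir-184 had 1040 in control 2 (exact Poisson 95% interval 978 to 1105) and 25337 in control 3 (25026 to 25651), a 23.8-fold difference in RPKM within a genotype. As a share of the library it ran from 0.0151% (Wilson 95% interval 0.0142% to 0.0160%) in control 2 to 0.415% (0.409% to 0.420%) in cKO 3. These intervals hold counting error alone and treat each read as a molecule of its own. Amplified reads carry no molecular identifiers, so repeat molecules cannot be recognised and the intervals may be too narrow. They are far narrower than the spread between pools.

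The epithelial miRNA mir-31 followed a like course. Its values were 1494, 212 and 2282 RPKM in control 1 to 3 and 1428, 3268 and 3167 RPKM in cKO 1 to 3. Control 2 was again the lowest library, 10.8-fold below control 3, and cKO 1 the lowest of the cKO libraries, below both control 1 and control 3. The pair was not locked together: mir-184 exceeded mir-31 by 5.85-fold in control 1, 10.3-fold in control 2, 22.8-fold in control 3 and 16.7- to 19.0-fold in the cKO libraries, in RPKM.

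Neither difference between genotypes passed in the limma fit of log2(RPKM + 1) with equal weights for all 6 libraries. The mean of mir-184 was 20973 ± 27071 RPKM over the control libraries against 47070 ± 20115 RPKM over the cKO libraries (SD, n = 3 each). Its log2 fold change of 2.12 (SE 0.88, 95% interval 0.16 to 4.09; limma adjusted p = 0.052) was the highest of the 461 tested. For mir-31 the means were 1329 ± 1045 and 2621 ± 1035 RPKM (SD, n = 3 each), with a log2 fold change of 1.45 (SE 0.72, 95% interval -0.15 to 3.05; limma adjusted p = 0.091). After median-of-ratios scaling the values were 1.39 (95% interval -0.58 to 3.37; limma adjusted p = 0.31) and 0.72 (95% interval -0.90 to 2.33; limma adjusted p = 0.60).

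Other treatments of the same 6 deposited libraries did pass. With library weights mir-184 was at 2.70 (limma adjusted p = 0.011) and mir-31 at 2.20 (limma adjusted p = 0.0093), in a fit where 349 of 461 precursors rose. Voom on whole reads gave 2.12 for mir-184 (limma adjusted p = 0.034), where 309 of 432 precursors rose. Single libraries also moved these values. Without control 3 the log2 fold change of mir-184 was 3.31 (limma adjusted p = 0.0016) and that of mir-31 was 2.12 (limma adjusted p = 0.023), in a fit where 69.8% of precursors rose. Without control 2 they were 1.03 and 0.41 (limma adjusted p = 0.19 and 0.31), in a fit where 55.3% rose. Without cKO 1 mir-184 was at 2.56 (limma adjusted p = 0.035) where 62.7% rose, and at 1.79 on the median-of-ratios scale (limma adjusted p = 0.29). On the latter scale mir-184 rose without control 3, at 2.53 (limma adjusted p = 0.017), where 10 of 461 precursors rose. On that scale it stood at 0.31 without control 2 (limma adjusted p = 0.84). There mir-31 stood at 1.33 without control 3 and -0.30 without control 2 (limma adjusted p = 0.26 and 0.63). No library is marked as faulty in the labels, so the values with all 6 stand as the result.

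**Figure D2:**
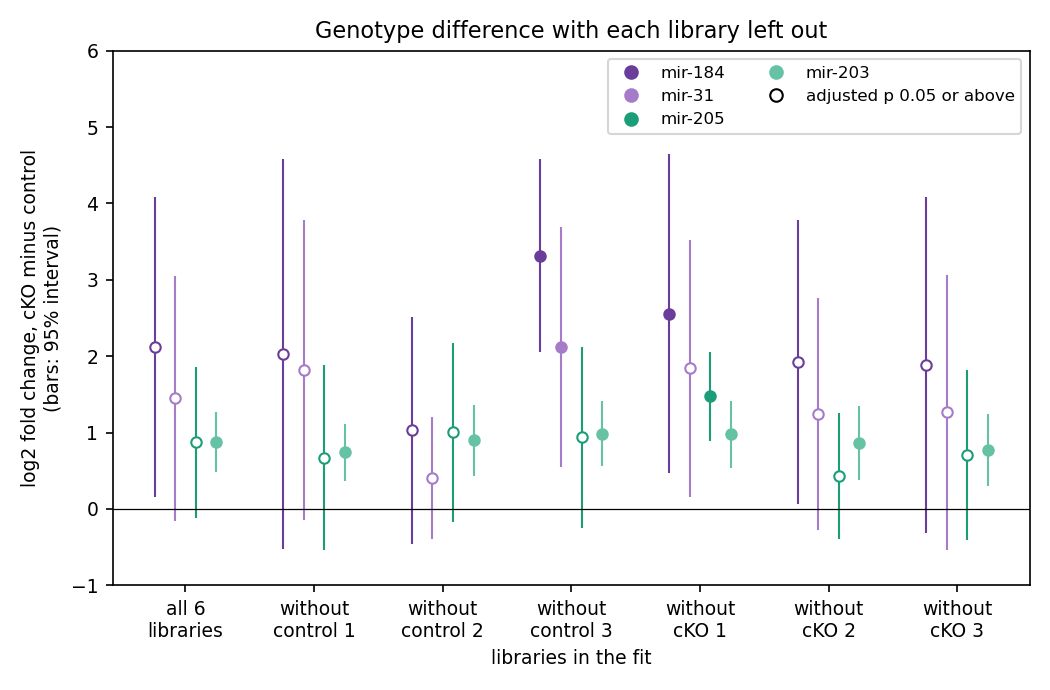
Log2 fold change (cKO minus control, with 95% intervals) of mir-184, mir-31, mir-205 and mir-203 with all 6 libraries and with each left out. Filled points have a limma adjusted p below 0.05: mir-203 is filled in every fit, mir-184 without control 3 (3.31) and without cKO 1 (2.56), mir-31 without control 3 (2.12) and mir-205 without cKO 1 (1.48).

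The spread of this pair stood apart from that of other abundant miRNAs. The residual SD within genotype on the log2(RPKM + 1) scale was 1.70 for mir-184 and 1.38 for mir-31, ranks 2 and 3 of 461, against a median of 0.23. Among the 162 precursors that averaged 1000 RPKM or more they held ranks 1 and 2, and the next, mir-1247, was at 0.50. The highest residual SD of all tested precursors was 1.93, that of mir-5097, which was highest in control 2 (3452 RPKM) and lowest in control 1 (91.8 RPKM). With median-of-ratios scaling the residual SDs of mir-184 and mir-31 were 1.64 and 1.34, again ranks 2 and 3. These ranks are descriptions of the 6 libraries. The pair was already set apart as variable from these same values, so the ranks restate that and are no separate evidence.

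**Figure D3:**
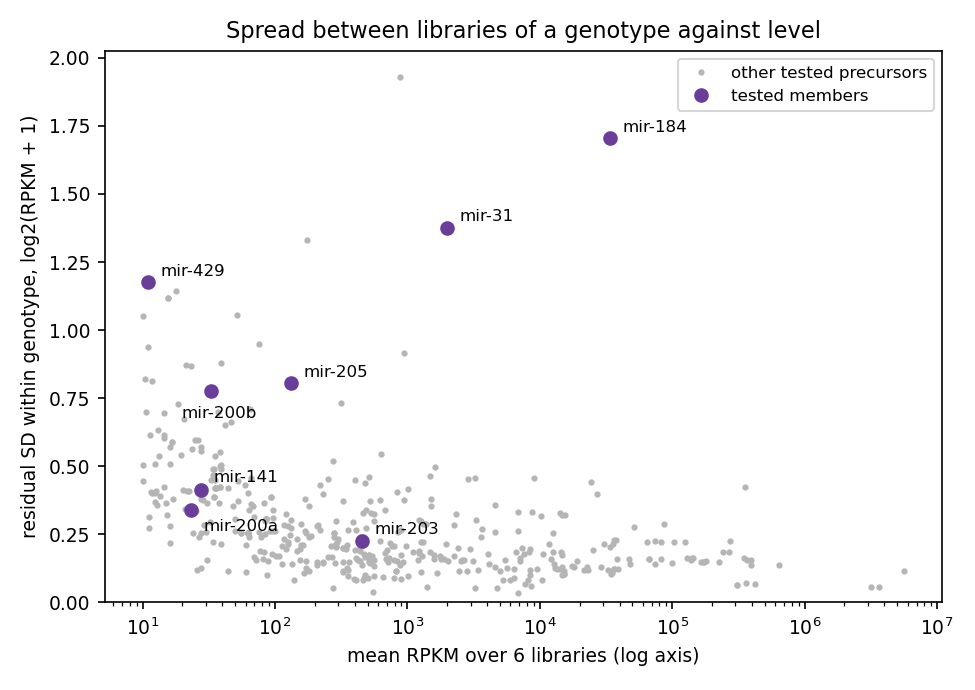
Residual SD within genotype, on the log2(RPKM + 1) scale, against mean RPKM (log axis) for the 461 tested precursors, with the 8 tested members named. At levels of at least 1000 RPKM mir-184 (1.70) and mir-31 (1.38) lie far above the other points, while mir-203 (0.23) lies among them.

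Precursors whose pattern was most like that of the pair were sought among the tested precursors that averaged 100 RPKM or more (305 compared with each), by Pearson's r of log2(RPKM + 1) over the 6 libraries, which share their totals. Closest to mir-184 were mir-31 (r = 0.942), mir-23b (0.932), mir-133a-1 and mir-133a-2 (0.925 each) and mir-199a-2 (0.923). Closest to mir-31 were mir-184, mir-133b (0.934), mir-133a-1 and mir-133a-2 (0.933 each) and mir-23b (0.837). All these r are of values as deposited, where 429 of the 461 tested precursors were higher in cKO retina. After median-of-ratios scaling r of mir-184 with mir-31 was 0.911, and the other precursors named here were not compared on that scale. The copies of mir-133 are miRNAs of skeletal and heart muscle. Their range was much smaller than that of mir-184: mir-133a-1 stood at 781, 525 and 918 RPKM in control 1 to 3 and 881, 1385 and 1199 RPKM in cKO 1 to 3, a 1.75-fold range within control retina.

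Markers of other tissues around the retina were set beside the pair as lists. Of 8 muscle miRNAs listed 7 were tested, of which 4 rose as deposited, where 69.4% of all tested precursors rose, and 0 fell (limma). Of these 4, 3 were the copies of mir-133, whose values run nearly in parallel, and with median-of-ratios scaling 0 of the 7 rose or fell. The 8 summed to 1865, 1295 and 2191 RPKM in control 1 to 3 and 2130, 3316 and 2840 RPKM in cKO 1 to 3. The sum is mostly mir-133 and was lowest in control 2, where mir-184 and mir-31 were lowest. Besides the copies of mir-133, mir-1a-1 (28.3 RPKM) and mir-1a-2 (30.2 RPKM), whose values run nearly in parallel, were also lowest in control 2. So was mir-208b, at very few reads (3.77 RPKM). The muscle miRNA mir-499 went the other way, at 33.9, 71.6 and 55.6 RPKM in control 1 to 3, with control 2 the highest of these. Of the defining muscle miRNAs none was at 0, and mir-206, the miRNA of skeletal muscle, was at 3.88 to 11.0 RPKM with its highest value in control 1. The pair mir-204 and mir-211, known from pigment epithelium, ciliary body and lens, summed to 655315, 691261 and 758334 RPKM in control 1 to 3. In cKO retina the sum was 1197357 to 1475670 RPKM. Control 2 was not low for it, but the sum stood far above mir-184 in every library, so a small part from carried-over tissue would not show in it. Red cell miRNAs (3 listed, none at 0) summed to 16553 to 19359 RPKM in control and 26667 to 31080 RPKM in cKO retina. Nearly all of that was mir-486 (16387 to 19127 RPKM in control), with mir-451a at 141 to 210 RPKM there. Vessel miRNAs (3 listed, none at 0) summed to 18667 to 34997 and 41036 to 54676 RPKM. As deposited 2 red cell and 3 vessel miRNAs rose, where 69.4% of all tested precursors rose (limma). With median-of-ratios scaling 0 and 1 did, where 2.17% rose: mir-126, at 0.64 (limma adjusted p = 0.02). The part of muscle, lens, cornea or other carried-over tissue in the levels of mir-184 and mir-31 was not tested.

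**Figure D4:**
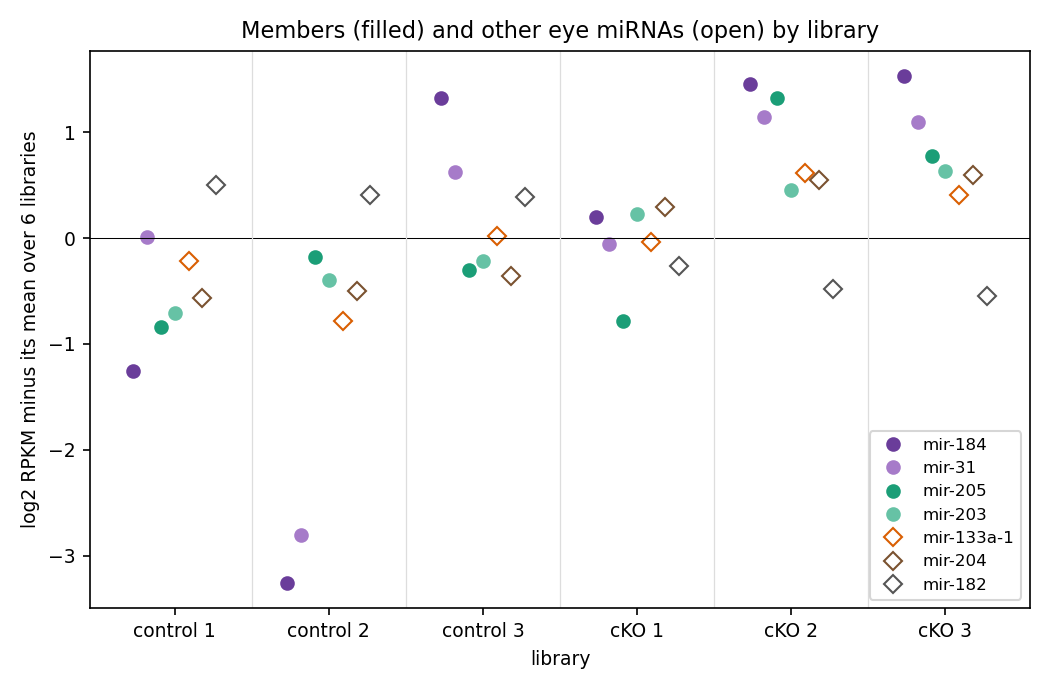
Log2 RPKM minus its own mean over the 6 libraries for 4 members (filled circles) and for mir-133a-1, mir-204 and mir-182 (open diamonds), by library. In control 2 mir-184 and mir-31 lie far below the other points, and mir-133a-1 also has its lowest value there (525 RPKM), while mir-205, mir-203 and mir-204 do not.

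The miRNA of stratified epithelium mir-205 was not low in control 2. It stood at 62.9, 100.3 and 91.6 RPKM in control 1 to 3 and at 65.8, 282.9 and 193.2 RPKM in cKO 1 to 3. The library cKO 1 lay with the controls, while cKO 2 and cKO 3 lay above all of them. In reads the range was 31 in cKO 1 (exact Poisson 95% interval 21.1 to 44.0) to 133 in cKO 2 (111 to 158), and these intervals did not overlap. The log2 fold change of 0.87 did not pass (SE 0.44, 95% interval -0.12 to 1.86; limma adjusted p = 0.098). On the median-of-ratios scale mir-205 stood at 0.15 (95% interval -0.81 to 1.11; limma adjusted p = 0.89). As deposited and without cKO 1, in a fit where 62.7% of precursors rose, mir-205 rose by 1.48 (limma adjusted p = 0.0014), and without cKO 2 its value was 0.43 (limma adjusted p = 0.33).

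The keratinocyte miRNA mir-203 was the 1 member that rose in the equal-weight limma fit of all 6 libraries as deposited. With library weights, where 349 of 461 precursors rose, mir-184, mir-31 and mir-205 rose too. The level of mir-203 was 262.2, 326.4 and 368.9 RPKM in control 1 to 3 and 501.6, 586.1 and 665.0 RPKM in cKO 1 to 3. Every cKO library lay above every control library, as it did for 71.6% of the tested precursors. The rise was 1.83-fold (log2 0.87, SE 0.18, 95% interval 0.48 to 1.27; limma adjusted p = 0.0020), close to the median of all precursors. It ended with median-of-ratios scaling, at 0.14 (95% interval -0.19 to 0.48; limma adjusted p = 0.61). Scaled in that way, its libraries were at 353.8, 427.9 and 437.2 in control and 403.3, 434.5 and 510.9 in cKO retina and overlapped.

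The miR-200 family was scarce in every pool. Its 5 precursors together had 44, 57 and 42 reads in control 1 to 3 and 50, 76 and 50 reads in cKO 1 to 3. Their RPKM summed to 74.6, 108 and 77.7 in control and 94.2, 145 and 122 in cKO retina. Control 2, lowest for mir-184, was thus the highest control library for this family, though by few reads (57 against 44 and 42). The ratio of mir-184 to the summed family ran from 20 in control 2 to 669 in control 3 and from 254 to 493 in cKO retina. Over the 6 libraries, which share their totals, Pearson's r of mir-184 with single members of the family ran from -0.419 to 0.303 on the log2(RPKM + 1) scale and from -0.643 to -0.076 after median-of-ratios scaling.

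Within the shared seed of miR-200b the precursor mir-200b was at 15.3, 35.2 and 24.3 RPKM in control (8, 17 and 12 reads) and 16.5, 47.5 and 57.3 RPKM in cKO retina (8, 23 and 22 reads). Control 1 and cKO 1 were both low, and the groups overlapped. For mir-429, its cluster partner, the values were 20.9, 12.2 and 1.71 RPKM in control (13, 7 and 1 reads) and 6.96, 8.71 and 15.4 RPKM in cKO retina (4, 5 and 7 reads). The precursor mir-200c, from the other cluster, was at 1.94, 8.41 and 4.10 RPKM in control and 12.6, 14.7 and 10.6 RPKM in cKO retina. These values rest on 7 control and 17 cKO reads, and although each cKO library lay above each control library, as for 71.6% of the tested precursors, the counting intervals overlapped (for example 1.09 to 10.2 reads both in control 2 and in cKO 3). After median-of-ratios scaling the groups overlapped, with control 2 at 11.0 and cKO 1 to 3 at 10.1, 10.9 and 8.13.

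The precursors of the other seed, mir-200a and mir-141, lie in different clusters but had nearly equal reads in each library. They had 12 and 10 reads in control 1, 15 and 14 in control 2 and 14 and 13 in control 3. In cKO 1 to 3 they had 15 and 17, 21 and 20, and 9 and 8 reads. The counts differed by at most 2 reads in any library (r = 0.952 of log2(RPKM + 1) over 6 libraries). The sources used here do not say how reads that fit several precursors were assigned, and whether mir-200a and mir-141 share reads was not tested. The precursor mir-200a and its own cluster partners mir-200b and mir-429 had r of 0.291 and -0.308 over the same libraries, and 0.115 and -0.006 after median-of-ratios scaling, at counts this low.

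No tested member of the miR-200 family passed. The log2 fold changes were 0.58 for mir-200b (95% interval -0.48 to 1.63; limma adjusted p = 0.28), 0.23 for mir-429 (95% interval -1.41 to 1.87; adjusted p = 0.78), 0.21 for mir-200a (95% interval -0.53 to 0.94; adjusted p = 0.58) and 0.34 for mir-141 (95% interval -0.41 to 1.09; adjusted p = 0.37). For mir-429 the sign differs from that of the means, 11.6 ± 9.63 RPKM over the controls against 10.4 ± 4.45 RPKM over the cKO libraries (SD, n = 3 each), since control 3 with its 1 read weighs more on the log scale. These 4 turned negative with median-of-ratios scaling, at -0.13, -0.42, -0.49 and -0.37. Reads summed by seed gave 0.54 for mir-200b, mir-200c and mir-429 together (95% interval -0.24 to 1.32; limma adjusted p = 0.18) and 0.28 for mir-200a and mir-141 together (95% interval -0.35 to 0.91; adjusted p = 0.38). On the median-of-ratios scale the sums stood at -0.18 and -0.44 (limma adjusted p = 0.86 and 0.30). Without cKO 1 mir-200b rose by 1.11 (limma adjusted p = 0.023), in a fit where 62.7% of precursors rose. As deposited and with no filter on low values mir-200c rose by 1.37 (limma adjusted p = 0.034) in a fit of 652 precursors of which 48.8% rose. The intervals of these 4 precursors and of both sums, as deposited, included 0 and also 0.74, the median of all tested precursors.

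**Figure D5:**
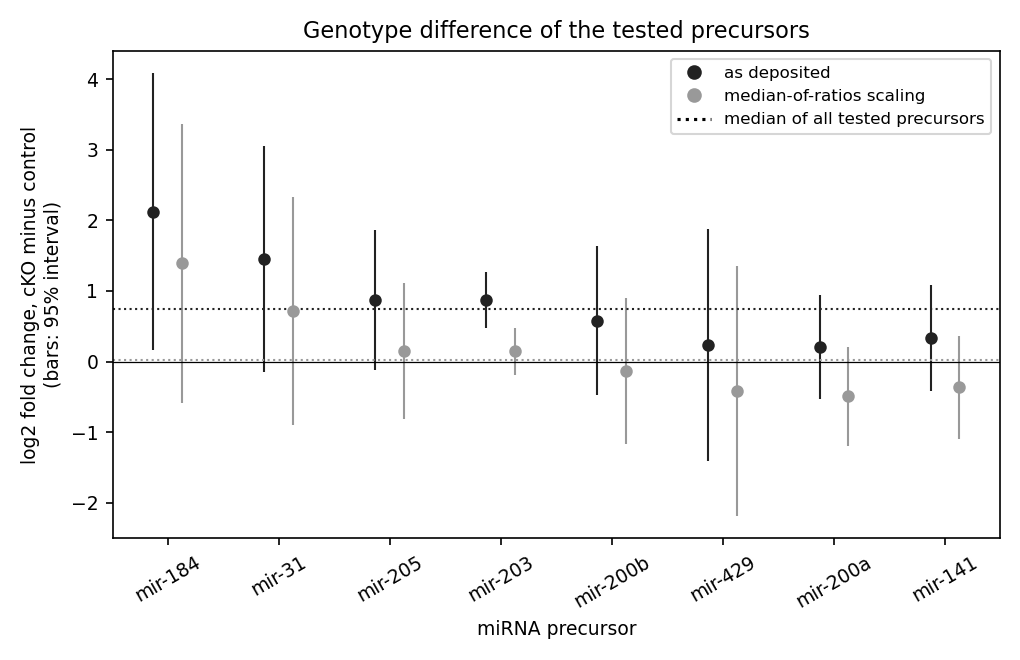
Log2 fold change (cKO minus control) with 95% intervals of the 8 tested members, as deposited (black) and with median-of-ratios scaling (grey), with the median of all tested precursors on each scale dotted (0.74 and 0.02). In black the intervals of mir-184 (0.16 to 4.09) and mir-203 (0.48 to 1.27) lie above 0, and in grey those of all 8 include 0.

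In counts, 1 of the 8 tested members rose as deposited, where 69.4% of all tested precursors rose, and 0 fell, where 1.74% fell (limma). All 8 had a positive log2 fold change, with a median of 0.73 beside 0.74 for all tested precursors. At an unadjusted p under 0.05, 2 were higher and 0 lower. Limma voom on whole reads gave 2 that rose and 0 that fell, where 309 and 8 of 432 precursors did. With median-of-ratios scaling 0 members rose and 0 fell, where 2.17% of all precursors rose and 9.98% fell. None had an unadjusted p under 0.05 on that scale, and 4 were higher and 4 lower, with a median of 0.01. Voom on that scale gave 0 and 0, where 8 of 432 precursors rose and 41 fell.

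A list of 11 other miRNAs of epithelia was read in the same way. It holds mir-375 of endocrine and secretory epithelium, mir-192, mir-194-1, mir-194-2 and mir-215 of gut and kidney epithelium, mir-34b, mir-34c and the mir-449 precursors of ciliated epithelium, and mir-224. Of these 8 were tested, 6 rose and 0 fell as deposited (limma), beside 69.4% and 1.74% of all tested precursors, and their median log2 fold change of 0.78 stood beside 0.74. The neuroendocrine mir-375 stood at 10683, 7128 and 8355 RPKM in control and 14730, 13864 and 15312 RPKM in cKO retina and rose 1.70-fold (limma adjusted p = 0.0022). The ciliated-cell miRNA mir-34c rose 1.86-fold (limma adjusted p = 9.2e-04), from 1157 to 1533 RPKM in control to 2272 to 2541 RPKM in cKO retina. The widest range within control retina among these 8 was that of mir-449a, at 22.3 to 42.0 RPKM, a 1.88-fold range beside 23.8-fold for mir-184. With median-of-ratios scaling 0 of the 8 rose and 1 fell, beside 2.17% and 9.98% of all tested precursors: mir-192, at -0.43 (limma adjusted p = 0.040).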

How the data were processed

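Small RNA libraries of 6 retinal pools were analysed, 3 control and 3 cKO. Per the labels' protocols, 1 µg of total RNA from 6 retinas per library was made into adapter-ligated libraries with 11 rounds of PCR, gel-selected for miRNA inserts, and read over 50 bases in 1 run that held every library. The authors deposited RPKM values per miRNA precursor. The submitters' processing notes name Bowtie and build mm9. Other settings, among them the handling of reads with several matches, are not stated in the sources at hand. Coordinates are not printed, since the reference at hand is GRCm38.

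Each RPKM value times the precursor's length (RefSeq, then GENCODE, matched by name for 812 of 855 precursors) was a whole multiple of 1 step in each library, so that 100.0% of 4872 values came out as whole reads within a tolerance of 0.01 reads, and the step gave the library's total. The sum of reads over precursors was 1.522 times that total in each control library and 1.735, 1.828 and 1.829 times in cKO 1 to 3. Some reads are therefore counted at several precursors, and more so in cKO retina. The part of this in the genotype differences was not tested.

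Genotypes were compared with limma 3.58.1 in R 4.3.3 (moderated variances with a trend) on log2(RPKM + 1) values, as cKO minus control, over all 461 precursors that averaged 10 RPKM or more. P-values are two-sided, and Benjamini-Hochberg adjusted over all of them with a threshold of 0.05. Fold changes on this scale understate changes of low precursors. P-values judge the difference between genotypes against the spread between pools of a genotype. Intervals of reads are exact Poisson and those of shares Wilson 95% intervals (scipy 1.17.1). Plots used matplotlib 3.10.9.

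The members and lists were chosen with earlier results of these data known. The rule named all 9 members, the 5 precursors most correlated with mir-184 and with mir-31, and the lists. Alternatives covered pseudocount, filter, scaling, variance model, library weights, voom on whole reads (432 precursors), seed sums, the replicate number as a block, and omission of single libraries. Median-of-ratios scaling with a library left out was added after seeing the data, for mir-184 and mir-31.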

Additional observations from a re-analysis of the deposited data

How the results depend on the processing

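No member fell under any alternative run. The number that rose was 1 with the values as deposited, where 320 of 461 precursors rose. It was 2 with a pseudocount of 10 (mir-184 and mir-203), where 321 of 461 precursors rose. With no filter on low values it was 2, where 318 of 652 rose. With voom on whole reads it was 2, where 309 of 432 rose, and with library weights 4, where 349 of 461 rose. It was 0 with median-of-ratios scaling, quantile normalization and totals without mir-182 reads, where 10, 12 and 20 of 461 rose. Voom with median-of-ratios scaling also gave 0, where 8 of 432 rose. With single libraries left out the number of members ran from 1 to 4, in fits where 252 to 322 of 461 precursors rose. With the replicate number as a block 3 members rose (mir-184, mir-203 and mir-205), where 338 of 461 precursors rose. Same-numbered deviations correlated at 0.19, 0.26 and 0.0093. Libraries numbered 1 and 2 correlated best with their own number. Control 3 correlated best with cKO 1 (0.015) and cKO 3 with control 2 (0.048), so the numbers were not taken to pair the pools. With median-of-ratios scaling, quantile normalization, totals without mir-182 reads, and voom with median-of-ratios scaling, in that order, log2 fold changes turned negative for mir-200b (-0.13, -0.057, -0.025, -0.17), mir-429 (-0.42, -0.54, -0.32, -0.47), mir-200a (-0.49, -0.57, -0.39, -0.49) and mir-141 (-0.37, -0.33, -0.26, -0.35), and the call of mir-203 ended (0.14, 0.076, 0.25, 0.14). Leaving out a library gave -0.66 to 0.85 for mir-429 and -0.014 to 0.41 for mir-200a. On the median-of-ratios scale, leaving out a library gave 0.31 to 2.53 for mir-184 and -0.30 to 1.33 for mir-31. The cause of these turns was not tested. Depth limits the miR-200 family, which had 42 to 76 reads per library.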
